A study of Homo sapiens with 8 samples.

Results

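EZH2 regions found only in TKO cells were the places where EZH2 was called by ChIP-seq in myeloma cells with low MMSET and in neither library of the matched cells with high MMSET. ChIP-seq recovers chromatin fragments that carry a protein with an antibody and sequences them. NTKO and TKO are derivatives of KMS11, a multiple myeloma cell line with the t(4;14) translocation, which joins the MMSET gene to strong immunoglobulin enhancers. NTKO cells lost their unrearranged MMSET copy, and the translocated copy keeps MMSET high. TKO cells lost the translocated copy by homologous recombination, and the unrearranged copy that remains gives low MMSET. Neither line therefore has both copies intact, and whether each is a single clone is not given in the sources used here. Each line had 2 EZH2 ChIP samples, called run 1 and run 2, from cells at passages 15 to 20, and 4 input samples without antibody served as controls in the authors' peak calls. The peaks of the 4 lists (hg18) were merged where they overlapped or touched, which gave 11857 regions. Regions with a peak in at least 1 TKO list and none in either NTKO list numbered 1308, and 322 of these in a stretch near the start of chromosome 1 (starts 2523746 to 3441317) and near the end of chromosome 9 (starts from 136337254 on) were left out. The remaining 986 regions (8.32% of all merged regions) are called TKO-only below. A further 2785 regions outside those stretches had peaks in both lines and are called shared.

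EZH2 is the catalytic subunit of Polycomb repressive complex 2, which methylates lysine 27 of histone H3 and is found at silent genes, in particular at CpG-rich promoters of developmental regulators. MMSET, also called NSD2 or WHSC1, places dimethylation on lysine 36 of the same histone tail, and that mark hinders the action of EZH2 on lysine 27. The study mapped EZH2 in both lines to learn whether high MMSET changes where EZH2 sits. The TKO-only regions are the sites called in the cells with low MMSET and not in those with high MMSET. The regions were chosen by the called peaks themselves, present in TKO and absent in NTKO, so that difference is a description and was not tested. A height below is the deposited number of reads at a peak's summit. It carries no stated scaling to library size, so TKO-only and shared peaks were compared within a library, and a ratio of heights between libraries also carries any difference in depth. A region without a peak in a list has no height there, and a signal under the authors' threshold cannot be told apart from none.

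The lists differed in length, with 10582 and 2972 peaks in NTKO runs 2 and 1 and 5516 and 651 in TKO runs 2 and 1. The depth of the libraries is unknown from the lists. The study describes the runs of a line as independent biological replicates that were highly correlated. In each run it gives a higher false discovery rate, the expected share of false peaks, for TKO than for NTKO. Within each line that rate was higher in run 1, and the study used run 2 peaks downstream. Which regions counted as TKO-only depended mostly on both run 2 libraries. Without NTKO run 2, 3194 regions met the rule, and without TKO run 2 only 67 did. Among shared regions, 51.6% had their NTKO peak from run 2 alone. Genes were not assigned to regions and no sequence was read, because the reference used here is GRCh37 and the lists are in hg18. The identity of the lines and their MMSET level were not checked here, because the peak lists hold no genotype or expression values. Positions are as deposited, and the lists do not state whether counting starts at 0 or 1.

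The highest TKO-only region with a peak in both TKO runs was at chr2:60630053-60633884, and it was also the widest of all 986, at 3831 bases. Its height was 78 reads in TKO run 1 and 202 in TKO run 2. TKO run 1 had 4 separate peaks where TKO run 2 had a single broad one. The region opened a group of 6 TKO-only regions that spanned 7.45 kb and ended at 60637505. The next strong member, chr2:60635350-60636270, had 49 reads in run 1 and 142 in run 2. Between them, chr2:60634789-60635128 had 37 and 89 reads, and chr2:60634060-60634490 had 92 reads in run 2 with no run 1 peak. At the far end, chr2:60636378-60636564 had 54 reads in run 2 alone, and chr2:60637199-60637505 had 40 and 46 reads. Of the 6 regions, 4 were called in both TKO runs, which no other chain of members within 10 kb of each other reached. The nearest NTKO peak lay 24.9 kb beyond the group, at chr2:60662446-60662814, with 81 reads in NTKO run 2. NTKO run 1 had no peak within 40 kb of the highest region. The gaps between neighbours in the group were 108 to 635 bases, so its regions do not count as independent sites.

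**Figure D1:**
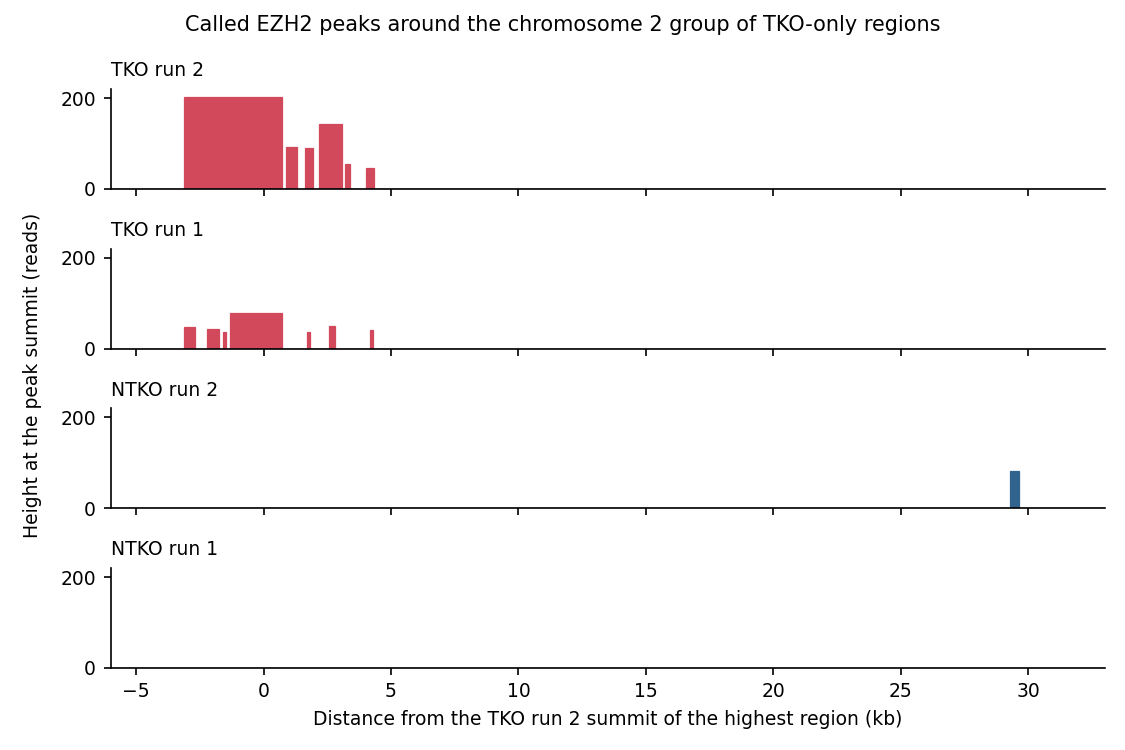
Called EZH2 peaks in the 4 lists around the chromosome 2 group, with distance from the TKO run 2 summit of the highest region in kb on the x axis and summit height in reads on the y axis; each box spans 1 peak and its top is the summit height, not a read profile. Both TKO runs have peaks over the 7.45 kb of the group, up to 202 reads in run 2 and 78 in run 1, while the only NTKO peak in view is the one of 81 reads in NTKO run 2.

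Of the 986 TKO-only regions, 27 had a peak in both TKO runs, 934 in run 2 only and 25 in run 1 only. The 27 lay on 14 chromosomes, with 5 on chromosome 1, 4 on chromosome 2 and 3 each on chromosomes 3 and 7. Their heights ran from 37 to 94 reads in run 1 (median 45) and from 46 to 202 in run 2 (median 102). Run 2 was the higher in all 27, with a median ratio to run 1 of 2.39, which cannot be told apart from a difference in depth between the runs. Shared regions with peaks in both TKO runs had a median ratio of 2.71, and run 2 was the higher in 339 of 344.

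After the chromosome 2 region, the next highest was chr1:146542818-146543201, with 94 reads in run 1 and 199 in run 2. It was narrow for its height, at 383 bases, and stood alone: the nearest peak of either line in any other region was 577 kb away. The region chr6:138469680-138470918 had 56 reads in run 1 and 169 in run 2. On chromosome 17, chr17:68672791-68674158 had 38 and 167 reads, the largest ratio between the runs among the 27, at 4.39. Both had another TKO region within 1 kb, 340 bases away on chromosome 6 and 520 bases away on chromosome 17. The nearest NTKO peaks were 54.1 kb and 263 kb away. Of the 27, 16 lay more than 100 kb from any NTKO peak and 3 within 1 kb.

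On chromosome 1, chr1:205693944-205695018 had 46 and 159 reads and chr1:8684705-8686402 had 76 and 131 reads. The region chr11:61339094-61341532, the second widest of all members at 2438 bases, had 42 and 151 reads, and its −log10 p of 78.7 in run 2 was the highest of all TKO-only regions. A −log10 p is the negative base-10 logarithm of the peak's p-value against input, for which the authors required at least 15. These 3 regions lay 544 kb, 113 kb and 10.7 kb from the nearest NTKO peak. The region chr7:122312799-122314013 (47 and 140 reads) had an NTKO peak only 82 bases away, and chr1:210849161-210850032 (58 and 134 reads) had one 233 bases away. For these last regions the absence of NTKO holds for the called interval but not for its immediate surroundings. On chromosome 20, chr20:47762649-47763474 had 45 and 131 reads. None of the regions called in both runs that are not described above passed 117 reads in run 2.

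**Figure D2:**
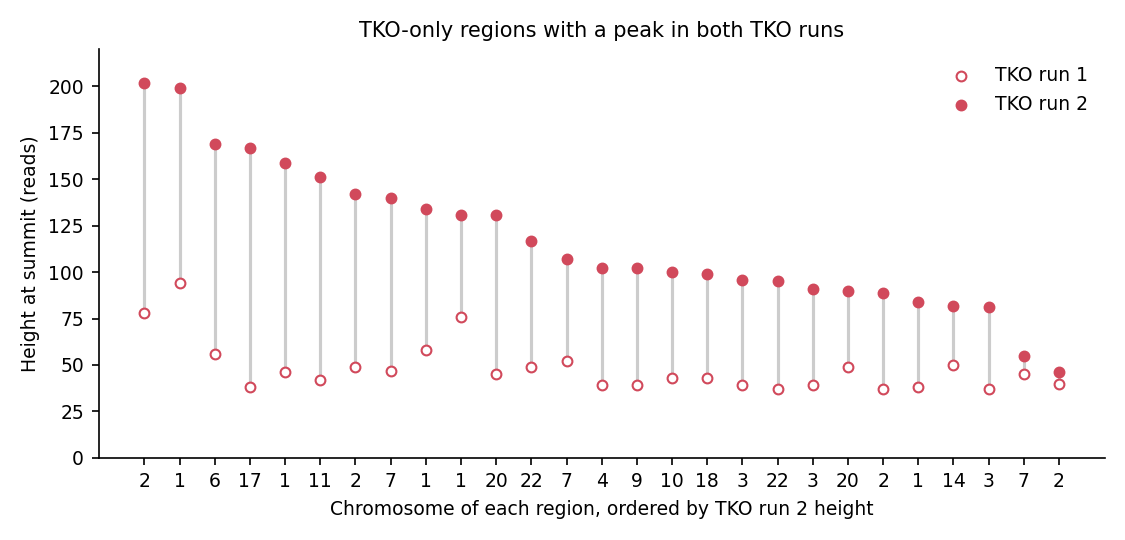
Summit heights in reads (y axis) of the 27 TKO-only regions with a peak in both TKO runs, each labelled by its chromosome and ordered by run 2 height (x axis); open points are TKO run 1, filled points TKO run 2, and lines join the same region. Run 2 is the higher in all 27, and run 1 heights stay between 37 and 94 reads.

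Few TKO-only peaks of run 2 were found again in run 1. A TKO run 1 peak shared at least 1 base with 28 of the 962 TKO-only peaks of run 2 (2.91%, Wilson 95% confidence interval 2.02 to 4.17), against 373 of 3856 shared peaks (9.67%, 8.78 to 10.6) and 8.32% of both kinds together. Counted as merged regions, the values were 27 of 961 (2.81%, 1.94 to 4.06) and 344 of 2727 (12.6%, 11.4 to 13.9), with 10.1% of both together. These intervals cover counting error only, and peaks of a library are not replicates. The rule looks for NTKO peaks, although TKO run 1 peaks entered the merging. By that rule a shared run 2 peak lay in a region also called in NTKO, and a TKO-only peak did not. The classes thus differ by construction in being called in another library, so their shares are a description and not an independent check. Below 75 reads few peaks of either class were found again. Under 50 reads it was 1 of 219 TKO-only peaks (0.457%, 0.0807 to 2.54) and 1 of 390 shared peaks (0.256%, 0.0453 to 1.44). From 50 to 74 reads it was 2 of 531 (0.377%, 0.103 to 1.36) and 19 of 1849 (1.03%). At 75 to 99 reads the share was 5.92% of 152 TKO-only peaks (3.15 to 10.9) and 5.51% of 907 shared peaks (4.21 to 7.19). At 100 reads or more it was 26.7% of 60 TKO-only peaks (17.1 to 39.0) and 42.7% of 710 shared peaks (39.1 to 46.3). The intervals all but met and treat each peak as independent, while members of the chromosome 2 group were among the 60. They therefore do not decide whether the classes differ at that height. The shared peaks of that bin were also taller, at a median of 122 against 114.5 reads, and wider, at 1357.5 against 743 bases. Their part in the difference was not tested.

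By width, 0 of 548 TKO-only peaks narrower than 250 bases were found again, which allows a share of up to 0.547%, and 11 of 1161 shared peaks were (0.947%, 0.530 to 1.69). Between 250 and 499 bases the shares were 3.57% of 280 TKO-only peaks (1.95 to 6.45) and 3.64% of 1154 shared peaks (2.70 to 4.88). From 500 to 999 bases they were 10.2% of 108 (5.78 to 17.3) and 9.02% of 809 (7.24 to 11.2). At 1000 bases or more they were 26.9% of 26 (13.7 to 46.1) and 33.7% of 732 (30.4 to 37.2). In these 3 wider bins each interval of the TKO-only peaks held the share of the shared peaks. Those intervals were wide from 500 bases on and peaks are not replicates, so this does not show equal shares. TKO-only peaks had a larger share of narrow and low peaks, as given below, and the part of this in their lower share over all widths was not tested. Seen from run 1, 27 of 52 TKO-only regions with a run 1 peak also had a run 2 peak (51.9%, 38.7 to 64.9), against 344 of 402 shared regions (85.6%, 81.8 to 88.7) and 81.7% of both together. The choice of the classes by NTKO calls applies to these shares too.

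TKO-only peaks were mostly short and low. In TKO run 2 their median height was 58 reads (from 28 to 224, n = 962), beside 69 reads for the shared peaks of the same library (from 32 to 332, n = 3856). In TKO run 1 the medians were 43 reads (from 20 to 94, n = 57) and 44 reads (from 20 to 264, n = 571). The lower ends of the classes lay close together, and the classes parted at the upper end. In run 2, 6.24% of TKO-only peaks reached 100 reads (4.88 to 7.95) against 18.4% of shared peaks (17.2 to 19.7). Median width in run 2 was 211.5 bases against 400.5, and in run 1 178 against 288. Peaks under 250 bases made up 57.0% of the TKO-only (53.8 to 60.1) and 30.1% of the shared peaks (28.7 to 31.6). A wider peak more readily meets an NTKO peak and is then counted as shared. The rule thus builds in part of the width difference, which was not tested.

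Much of the set lay near the calling threshold. In run 2, 50.2% of TKO-only peaks had a −log10 p under 20 (47.1 to 53.4), against 32.4% of shared peaks (31.0 to 33.9), and the weakest TKO-only peak had 15.1. At −log10 p of 40 or more there were 38 TKO-only peaks (3.95%, 2.89 to 5.38) and 493 shared ones (12.8%, 11.8 to 13.9). The lists hold no signal below the threshold. The shape of the peaks differed little. The average read level across a peak was, at the median, 0.60 of the summit height in TKO-only and 0.59 in shared peaks of run 2. The summit lay between 25% and 75% of the way along the peak in 69.8% of TKO-only peaks (66.8 to 72.6) and 73.5% of shared peaks (72.1 to 74.9). Of all TKO-only regions, 97.3% consisted of a single peak, and these were the regions called in 1 run only. Of the shared regions, 67.9% held a single TKO peak. There NTKO peaks can join several TKO peaks into a region, so these shares are not alike.

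**Figure D3:**
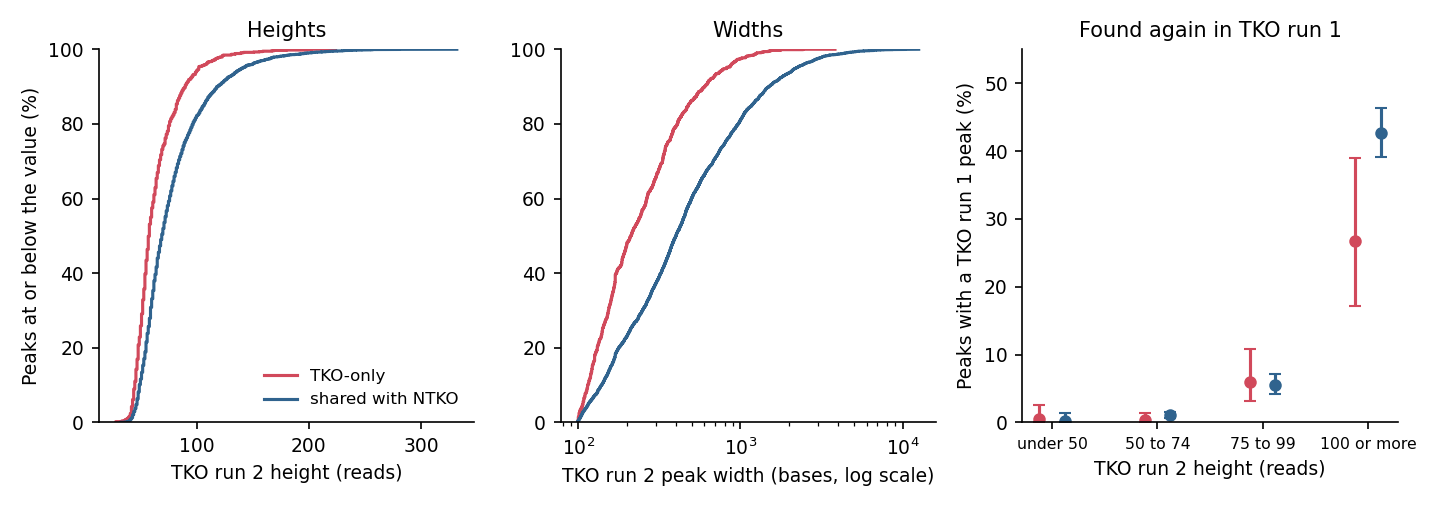
Cumulative share of TKO run 2 peaks by summit height in reads (left) and by width in bases on a log axis (middle), and the share of those peaks with a TKO run 1 peak in 4 height bins (right, points with Wilson 95% intervals), for TKO-only (red) and shared peaks (blue). TKO-only peaks are lower (median 58 against 69 reads) and narrower (211.5 against 400.5 bases), and at 100 reads or more 26.7% of them were found again in run 1 against 42.7% of the shared peaks.

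Many tall peaks of TKO run 2, whether TKO-only or shared, had no TKO run 1 peak. At 100 reads or more, 303 of 710 shared peaks (42.7%) had one. Of the 60 TKO-only regions with at least 100 reads in run 2, 16 had a run 1 peak and 44 had none. The highest of all TKO-only regions was among them: chr7:147658129-147659886 had 224 reads in run 2 and none called in run 1, with an NTKO peak 7.38 kb away. On chromosome 8, chr8:101507847-101508369 had 180 reads in run 2, lay 213 kb from the nearest NTKO peak and had no other TKO region within 2335 kb. The others that led this group were chr7:98246728-98247194 (156 reads), chr1:33588334-33588934 (139 reads) and chr17:76841829-76842568 (135 reads). The third widest member, chr2:36436858-36438633 (1775 bases, 110 reads), was also called in run 2 only.

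The 25 regions called only in TKO run 1 had heights of 20 to 77 reads (median 42). The highest were chr1:154351080-154351706 with 77 reads, chr1:160306005-160307266 with 55 and chr12:53048617-53048734 with 51. These had no peak in TKO run 2, although that list was the longer one. The first 2 were 626 and 1261 bases wide, against a median of 159 bases for the 25, and the third was 117 bases wide.

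TKO-only regions lay at all distances from the EZH2 peaks of NTKO cells. From the edge of a region to the nearest NTKO peak, 207 regions (21.0%, 18.6 to 23.6) had a gap of at most 1 kb, 143 (14.5%) a gap of 1 to 10 kb, 186 (18.9%) a gap of 10 to 100 kb and 450 (45.6%, 42.6 to 48.8) a gap of over 100 kb. The median gap was 69.1 kb, and 136 regions were more than 1 Mb away. For shared regions, the median gap to the nearest other NTKO region was 0.353 kb, and 87.0% had one within 100 kb. The rule bars NTKO peaks from the regions themselves, which lengthens their gaps, so these values were not tested against each other. Other TKO regions were also farther off, with a median gap of 29.3 kb for TKO-only and 0.831 kb for shared regions.

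The near and far regions differed little in height, with a median of 55.5 reads in run 2 within 1 kb of an NTKO peak and 59 reads beyond 100 kb, but more in width, at 166 and 237 bases. A wide region beside an NTKO peak would more readily have met it and left the set, so the widths were not tested. Regions with 100 reads or more numbered 7 of the 207 within 1 kb, 2 of 143 at 1 to 10 kb, 16 of 186 at 10 to 100 kb and 35 of 450 beyond 100 kb. Regions called in both TKO runs numbered 3, 0, 8 and 16 in the same order. The 0 came from 141 regions with a run 2 peak, which allows a share of up to 2.13%. Of the 207 within 1 kb, 112 had as their nearest NTKO region one that also held a TKO peak (54.1%). Of all NTKO regions, with the left-out stretches included, 28.7% held one. That share is not limited to NTKO regions near a TKO peak, so the sets are unlike and were not tested. Among the 207, 46 had NTKO regions within 1 kb on both sides. Another TKO region lay within 1 kb of 146 of the 207 (70.5%), against 115 of the 450 beyond 100 kb (25.6%). These 112 regions therefore lay beside sites called in both lines.

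**Figure D4:**
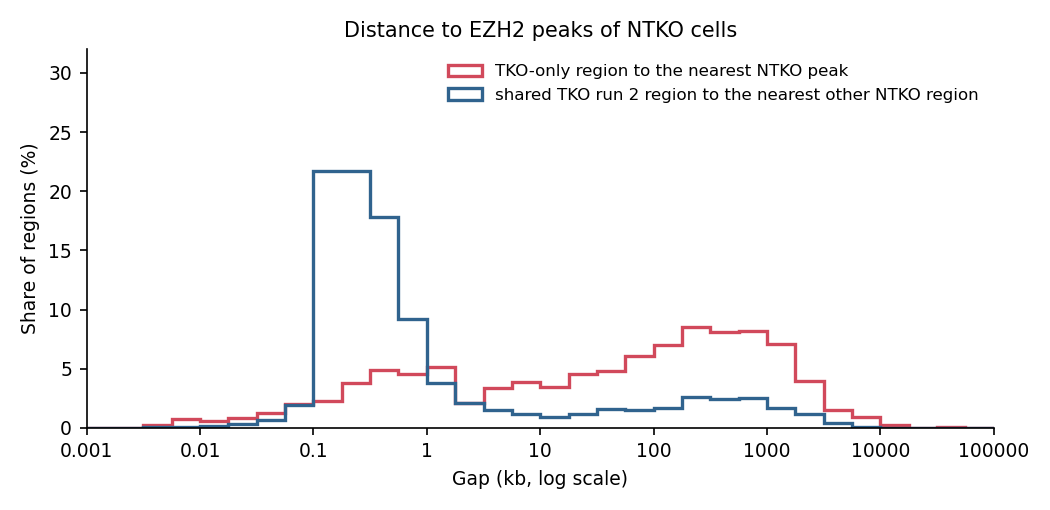
Share of regions in percent (y axis) by gap in kb on a log axis (x axis), from TKO-only regions to the nearest NTKO peak (red) and from shared regions with a TKO run 2 peak to the nearest other NTKO region (blue). TKO-only gaps spread over the whole range, with 21.0% at most 1 kb and 45.6% over 100 kb, while most shared regions have a neighbour within 1 kb.

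At the border of the rule, the TKO-only regions nearest to an NTKO peak were chr10:134804351-134804483, chr1:1936893-1937094 and chr16:84312855-84312975, with gaps of 4, 5 and 6 bases and 48, 58 and 54 reads in TKO run 2. A gap of 6 bases was also found at chr7:33910131-33910377, with 62 reads. Just outside it was chr12:6745110-6745492, where a TKO peak of 50 reads touched an NTKO peak of 43 reads without a base in common. In chr7:100392770-100393008, peaks of 56 reads in TKO and 50 in NTKO run 2 overlapped by 2 bases, and in chr5:40834057-40834427 peaks of 72 and 51 reads overlapped by 12 bases. Heights on both sides of the border overlapped. Only 8 shared regions (0.287%) had under 10% of their TKO bases overlapped by NTKO peaks.

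The TKO-only share of the regions with a TKO peak, 26.1% in all, varied between chromosomes. It was highest on chromosomes 13 (53.2%, 39.2 to 66.7, 25 of 47 regions) and 12 (53.0%, 45.0 to 60.9, 79 of 149). Chromosome 2 had 46.4% (39.2 to 53.7, 83 of 179). It was lowest on chromosomes 20 (9.73%, 6.68 to 14.0, 25 of 257), 16 (11.4%, 8.56 to 15.1, 42 of 368) and 19 (12.9%, 8.77 to 18.6, 23 of 178). TKO-only regions called in both runs, 2.74% of the set, were too few to compare by chromosome. Chromosomes 12, 13, 16 and 19 had 0, chromosome 20 had 2 and chromosome 2 had 4. Chromosome 12 had 203 regions with an NTKO peak to 149 with a TKO peak, and chromosome 20 had 576 to 257. Chromosomes 13 and 2 had 91 to 47 and 391 to 179, and chromosomes 16 and 19 had 1049 to 368 and 679 to 178. Chromosome 10, with a TKO-only share of 44.5%, had 347 to 119. The part of these counts in the shares was not tested.

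The lowest height called also varied by chromosome. In TKO run 2 it was 32 reads on chromosome 13, 41 on chromosome 12 and 40 on chromosome 2, but 48 on chromosome 20, 52 on chromosome 16 and 55 on chromosome 19. NTKO run 2 had similar minima, with 32, 38, 40, 48, 51 and 55 reads in that order. The median height of TKO-only regions on these chromosomes ran from 43 reads on chromosome 13 to 68.5 on chromosome 19. Outside these 6, chromosome 11 had the same TKO run 2 minimum as chromosome 12, 41 reads, with a TKO-only share of 18.6%. Chromosome 6 had a minimum of 39 reads and a share of 30.6%. The part of the minima in the shares was not tested. Among regions of 50 to 74 reads the TKO-only share was 66.2% on chromosomes 2, 12 and 13 together (88 of 133) and 17.6% on chromosomes 16, 19 and 20 together (58 of 330). At 75 to 99 reads it was 31.3% (21 of 67) and 10.2% (27 of 264), and at 100 reads or more 16.1% (10 of 62) and 1.96% (4 of 204). These chromosomes were chosen after their values were seen, as the 3 highest and 3 lowest with at least 40 TKO regions.

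**Figure D5:**
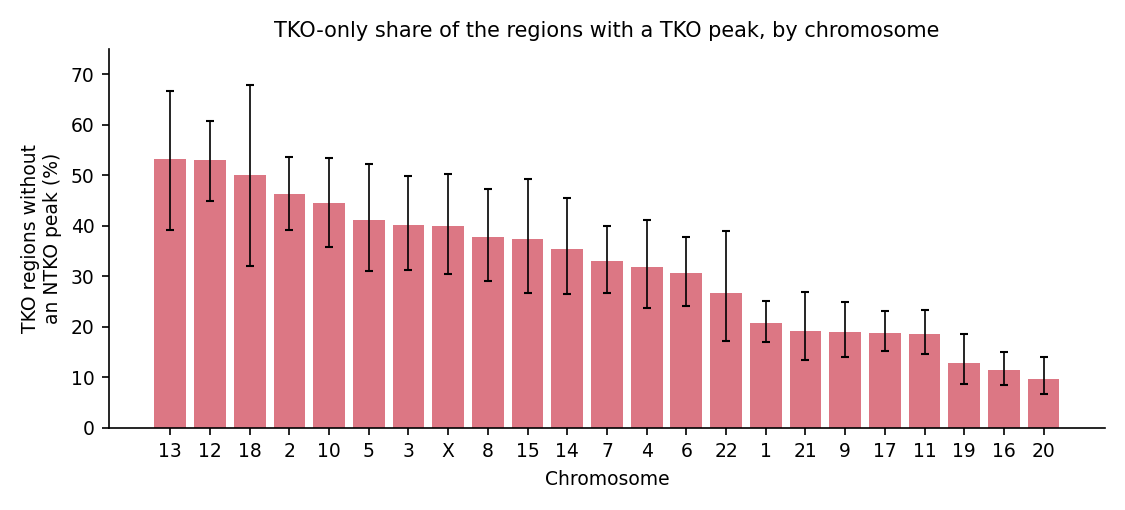
TKO-only share of the regions with a TKO peak in percent (y axis, bars with Wilson 95% intervals) for the chromosomes with at least 20 such regions (x axis), outside the left-out stretches. The share falls from 53.2% on chromosome 13 to 9.73% on chromosome 20.

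TKO-only regions were in part scattered and in part close together. In windows of 0.5 Mb, 476 regions (48.3%) were the only member of their window, 13 of the 27 called in both runs among them, and 300 regions (30.4%) lay within 10 kb of another member. Only 22 windows held 5 or more members, 14.6% of the set. The densest window, on chromosome 17 from 74500000 to 74999999, held 19 TKO-only regions with heights of 53 to 74 reads in run 2. All 19 lay within 10 kb of an NTKO peak, none was called in both runs, and the window also held 84 shared regions, so 18.4% of its TKO regions were TKO-only. The next, on chromosome 1 from 2000000 to 2499999, held 10 TKO-only and 43 shared regions. Of the 5 windows with 7 members, that on chromosome 2 from 60500000 to 60999999 held the group described above. Among the 7 windows with 7 or more members it was the only one with a region called in both runs, and 7 of its 8 TKO regions (87.5%) were TKO-only. On chromosome 3 from 129500000 to 129999999, all 7 members lay in a chain of 22.8 kb, with heights of only 44 to 50 reads.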

How the data were processed

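EZH2 ChIP-seq was analysed from 4 peak lists, 2 for NTKO and 2 for TKO cells. Reads were mapped by the authors with BWA on hg18 and duplicates at the same place were dropped. Each ChIP was normalized to its input, and peaks were called per sample with ChIPseeqer at 2-fold over input and a −log10 p of 15. CASAVA 1.8 is named in the submitters' processing notes. The signal columns deposited by the authors give the mean level and the summit height of reads in a peak, with no stated scaling to depth, and depth is not given by the lists. A score per peak, as deposited, holds its log10 p-value, and a percent value, also deposited, says how far along the peak its summit lies.

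Peaks were merged where the next start was at most 1 base past the running end. Height, width and gap comparisons are descriptions without a test. Intervals are Wilson 95%, from scipy 1.17.1, with pandas 2.3.3 and numpy 2.4.6 in Python 3.11.15, and figures used matplotlib 3.10.9. Upper limits for a count of 0 use 3 counts. Merging and distances were tested on simulated data of 3000 sites. Regions named were the highest called in both runs, in run 2 only and in run 1 only, the 3 widest, the densest windows and those at the border of the rule. The members and lists were chosen with earlier results of these data known. Planned results on start sites, GC content and motifs were not run, since no hg18 genome was used here.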

Additional observations from a re-analysis of the deposited data

How the results depend on the processing

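Of 43 alternatives to 5 results, 28 stayed within 1.5 times the count or within the SD between the TKO runs, whose heights are not scaled to depth, and 15 did not. With a −log10 p of at least 20 in all 4 lists there were 610 TKO-only regions, 15 of them in both TKO runs, at medians of 72 reads (height) and 369 bases (width). With that threshold in the TKO lists alone the values were 480, 10, 72 reads and 345.5 bases, and 13.1% lay within 1 kb of an NTKO peak. Merging peaks up to 1 kb apart leaves, by construction, 0% within 1 kb, and 35.5% lay within 10 kb. The mean level in place of the summit height gave 35.8 reads. Leaving out each replicate gave 67 to 3194 TKO-only regions, 33 to 46 in both runs (NTKO runs left out only), heights of 58 to 61 reads, widths of 178 to 264 bases and 19.4% to 21.6% within 1 kb. The largest counts came without NTKO run 2, whose list was the longest, and the smallest without TKO run 2. Start site, GC and motif alternatives were not run. No paired analysis was possible because the results come from no test. Unknown depth limits what absence from a list can show.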
